A study of Homo sapiens with 10 samples.

Results

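The HOX genes of the HOXA, HOXB, HOXC and HOXD clusters were examined in the human cell line HS-SY-II, which derives from a synovial sarcoma. Members were the protein-coding genes named HOXA to HOXD with a number, which gave 39 of the 63140 gene identifiers counted. HOXA holds 11 of them on chromosome 7, HOXB 10 on chromosome 17, HOXC 9 on chromosome 12 and HOXD 9 on chromosome 2. WA-68, a PROTAC that directs the bromodomain protein BRD9 to degradation, was given at 100 nM, and cells were harvested after 12, 24, 48 or 96 h. Control cells received DMSO, the vehicle. There were 2 biological replicates in each of these 5 groups, all of this 1 line. When the DMSO cells were harvested is not stated in the labels, so time in culture and treatment cannot be told apart. Poly(A) RNA was sequenced, with 7349744 to 13200051 counts assigned to genes per library. BRD9 mRNA averaged 88.7 ± 0.735 CPM (counts scaled to library size) at 96 h and 104 ± 5.61 CPM in DMSO (SD, n = 2 each). Its log2 fold change at 96 h was -0.23, and its edgeR adjusted p was under 0.05 in no comparison. The mRNA level does not report on the protein that the compound acts on.

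HOX genes encode homeodomain transcription factors that give cells their position along the head-to-tail axis and, for the posterior groups, along the limb. Within a cluster the genes lie in the order of their paralog numbers, and low-numbered genes are typically active earlier in development and nearer the head than high-numbered ones. HOX proteins bind DNA together with the TALE cofactors PBX, MEIS and PKNOX. BRD9 belongs to the non-canonical form of the BAF complex, a chromatin remodeller on whose function synovial sarcoma cells with the SS18-SSX fusion are known to depend. SS18 at 224 to 261 CPM, SSX1 at 41.7 to 57.2 CPM and TLE1 at 192 to 248 CPM were present in every library, while of the epithelial markers KRT7 held 1 count over all libraries, KRT19 was at 0.622 to 3.93 CPM and MUC1 at 2.95 to 7.40 CPM. PTPRC and CD3E of leukocytes, PECAM1 of endothelium, MYOG of muscle, MLANA of melanocytes and GFAP of glia were at 0. Other genes of these lists had counts, with MYH3 of muscle at 1.47 to 3.22 CPM, PMEL of melanocytes at 0.987 to 2.53 CPM, and the leukocyte and endothelial lists summing to at most 0.335 and 0.187 CPM. The neuronal genes RBFOX3 and SNAP25 were at 61.1 to 108 and 4.49 to 8.80 CPM. The 3 neuronal and glial genes summed to 96.0 to 115 CPM at 96 h, 66.6 to 71.3 CPM at 12 h and 88.8 to 95.7 CPM in DMSO, and their part in the HOX results was not tested.

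Sequences upstream of the start of 4 members are shown because these genes stand for the different outcomes below: HOXC4 and HOXD1 rose at 96 h, HOXD12 fell from 24 h on, and HOXA11 lies in the nearly silent HOXA cluster. None of the 96 h calls of HOXC4, HOXD1 and HOXD12 held in every alternative fit. HOXC12 and most HOXB genes had no promoter entry and could not be shown. The HOXC4 entry has the same position as that of HOXC5, which was not called, so the HOX windows counted below hold it for both genes. Each run is 150 bases upstream of the first annotated transcript start, 5′ to 3′ on the gene's own strand, from RefSeq on GRCh38.p14, with every CG dinucleotide in capitals. HOXC4 lies at chr12:54016738-54016887 on the plus strand, HOXD1 at chr2:176188429-176188578 on the plus strand, HOXD12 at chr2:176099580-176099729 on the plus strand and HOXA11 at chr7:27185233-27185382 on the minus strand.
HOXC4: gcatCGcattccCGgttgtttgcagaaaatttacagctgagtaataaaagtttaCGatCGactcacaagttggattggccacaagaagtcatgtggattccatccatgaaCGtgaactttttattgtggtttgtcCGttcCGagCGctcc
HOXD1: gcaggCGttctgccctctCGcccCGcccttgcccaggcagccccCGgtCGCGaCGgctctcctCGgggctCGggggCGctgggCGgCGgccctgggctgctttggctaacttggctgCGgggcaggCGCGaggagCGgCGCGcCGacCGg
HOXD12: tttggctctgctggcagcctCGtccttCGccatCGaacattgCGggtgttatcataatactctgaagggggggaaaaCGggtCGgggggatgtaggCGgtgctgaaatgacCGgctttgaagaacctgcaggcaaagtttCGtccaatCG
HOXA11: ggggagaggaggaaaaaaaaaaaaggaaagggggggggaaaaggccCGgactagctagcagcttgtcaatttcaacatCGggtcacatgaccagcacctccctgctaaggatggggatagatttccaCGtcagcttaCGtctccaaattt
The HOXD1 window held 20 CG dinucleotides, that of HOXD12 10, that of HOXC4 8 and that of HOXA11 4. CG occurred in 19 of the 19 HOX windows available, with a median of 10, and in 89.1% of all 35116 promoter windows of this length, with a median of 7. The other motifs were searched on both strands. TAAT, the core that homeodomains bind, was in 11 of 19 HOX windows and in 33.1% of all windows, and CCAAT was in 13 of 19 and in 23.5%. TATAA was in 5 of 19 and in 12.1%, and TGATNNAT, the composite letters of PBX and HOX binding, was in 2 of 19 and in 3.61%. Among the windows shown, HOXC4 and HOXD12 each held 1 TAAT and 1 CCAAT. These are matches of letters and not measured binding.

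HOXC and HOXB were the clusters with most of the HOX transcripts. In bulk RNA fewer cells with a transcript and less of it per cell cannot be told apart. Of the 39 members, 26 held enough counts to be tested, namely all 9 HOXC genes, 9 of 10 HOXB genes, 8 of 9 HOXD genes and 0 of 11 HOXA genes. A further 11 had at least 1 count without passing the filter on low counts, namely 9 genes of HOXA together with HOXB1 and HOXD4. HOXA4 and HOXA7 had 0 of 91969937 counts in all, which allows up to 0.0326 CPM for each by counting error alone. To compare genes, levels were divided by exon length, as CPM per kilobase of exon. On this per-length level the HOXC genes made up 73.9% ± 0.790 of the HOX sum, HOXB 24.6% ± 0.588, HOXD 1.48% ± 0.374 and HOXA 0.0637% ± 0.0328 (SD over all 10 libraries). With the longest transcript as the length the HOXC share was 71.0%.

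**Figure D1:**
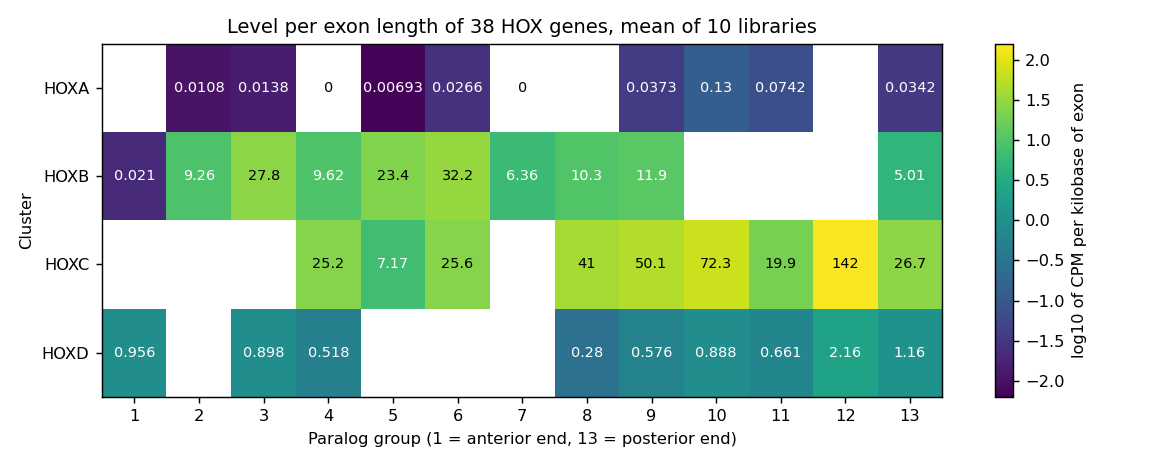
Mean level per exon length of 38 HOX genes over all 10 libraries, by cluster (rows) and paralog group (columns), with the CPM per kilobase printed in each cell and its log10 as colour. White cells marked 0 had no count and blank cells show no value. HOXC12 at 142 stands highest, every HOXD gene lies at or under 2.155, and no HOXA gene exceeds 0.130.

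The ranking was led by HOXC12, a posterior member whose mouse counterpart is expressed in the most caudal embryo. HOXC12 (chr12:53954834-53958956, plus strand, GENCODE 29 on GRCh38) reached 142 ± 26.5 CPM per kilobase over the 10 libraries and 25.6% of the summed per-length level of all HOX genes. Next came HOXC10 at 72.3 ± 5.195, a gene of the lumbar region and hindlimb, HOXC9 at 50.1 ± 1.76, which sets thoracic motor neuron identity in mouse, and HOXC8 at 41.0 ± 5.22, a brachial and thoracic patterning gene, in the same unit. With these lengths the 4 differed from their neighbours in rank by more than the larger SD of each pair. With the longest transcript as length HOXC8 ranked at 7, since HOXB3 then stood at 49.2, HOXB6 at 42.8 and HOXC4 at 41.3 CPM per kilobase, and the first 3 ranks held. HOXB6 at 32.2 ± 3.90, HOXB3 at 27.8 ± 3.28, HOXC13 at 26.7 ± 4.01, HOXC6 at 25.6 ± 3.36, HOXC4 at 25.2 ± 3.59 and HOXB5 at 23.4 ± 3.19 CPM per kilobase followed, and from HOXB3 to HOXB5 each neighbouring pair lay within its SD. The SD here covers all groups and so includes the changes described below.

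Lower in the order stood HOXC11 at 19.9 ± 1.89, HOXB9 at 11.9 ± 1.54, HOXB8 at 10.3 ± 0.924, HOXB4 at 9.62 ± 1.93, HOXB2 at 9.26 ± 0.793, HOXC5 at 7.17 ± 1.39, HOXB7 at 6.36 ± 0.717 and HOXB13 at 5.01 ± 0.529 CPM per kilobase. HOXB13, the most posterior gene of its cluster, is best known from prostate. HOXC5 shares 59.9% of its exon bases with other genes on the same strand, so its level and that of HOXC4 (17.8% shared) and HOXC6 (15.7% shared), which use common upstream exons, are uncertain. The same holds for HOXB3, HOXB4 and HOXB6, with 7.9%, 17.1% and 16.6% of their exon bases shared. HOXC12, HOXC13, HOXC8, HOXC11, HOXB5 and HOXD12 share no exon base on their strand.

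Position within a cluster did not order the clusters alike. In HOXC, the 5 posterior genes (paralog groups 9 to 13) had a median of 50.1 CPM per kilobase with a range of 19.9 to 142, and the 4 central genes (groups 4 to 8) a median of 25.4 with a range of 7.17 to 41.0. HOXC has no anterior gene (groups 1 to 3). In HOXB the medians were 9.26 for the 3 anterior, 10.3 for the 5 central and 8.45 for the 2 posterior genes, and HOXB1 was nearly silent at 0.021 beside HOXB2 and HOXB3. In HOXD the posterior HOXD12 was highest at 2.155 ± 1.04 and HOXD13, a digit patterning gene, followed at 1.16 ± 0.356, while HOXD8 was lowest at 0.280 ± 0.113. This order turned when only exon bases unshared on the same strand were used as length, where HOXD4 reached 2.65 and HOXD3 2.37 beside 2.155 for HOXD12, since 80.5% of HOXD4 and 62.2% of HOXD3 exon bases are shared with another gene. The HOXA genes ranged from 0 to 0.130 CPM per kilobase, with HOXA10 and HOXA11 at the top. These are descriptions over 2 to 5 genes per class, with no test.

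With WA-68 the HOX genes together took a growing share of all counts. The DMSO libraries had 0.132 and 0.146% of counts in HOX genes, the 12 h libraries 0.144 and 0.151%, the 24 h libraries 0.153 and 0.154%, the 48 h libraries 0.170 and 0.166% and the 96 h libraries 0.185 and 0.192%. Exact 95% binomial intervals were 0.183 to 0.188% and 0.189 to 0.195% at 96 h, and 0.130 to 0.134% and 0.143 to 0.148% in DMSO. These intervals cover counting error and not the spread between replicates, since those of the DMSO libraries do not overlap. The shares are of counts without scaling factors. Both 96 h libraries lay above all others, and HOXC12 alone held 42732 counts over the 10 libraries. Summed per-length levels of HOXC were 450 and 506 at 96 h and 346 and 392 in DMSO, and those of HOXB were 156 and 162 at 96 h and 121 and 131 in DMSO, in CPM per kilobase. HOXD ran the other way, with sums of 7.56 and 8.48 at 96 h and 10.48 and 10.82 in DMSO. Summed HOXA levels were 0.199 and 0.328 at 96 h and 0.605 and 0.531 in DMSO, from 9 and 8 counts and from 25 and 12 counts.

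**Figure D2:**
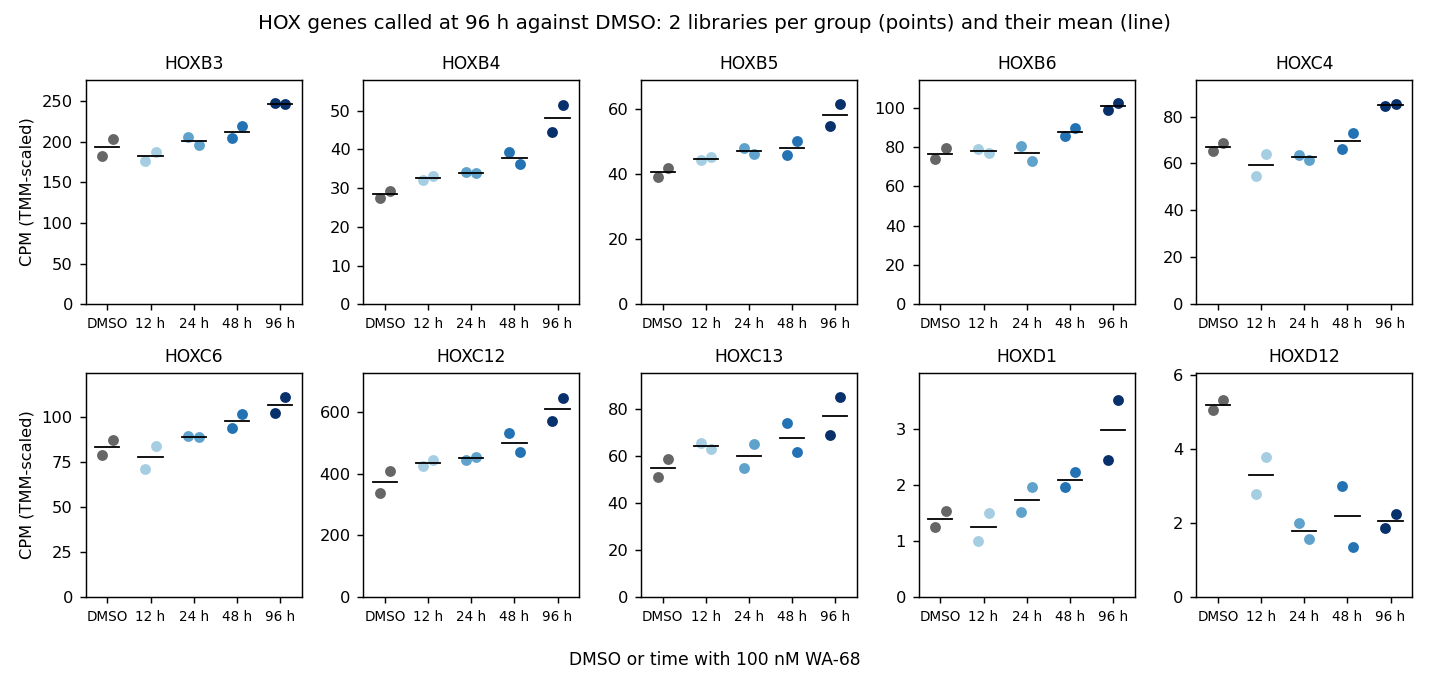
CPM of the 10 HOX genes called at 96 h against DMSO, with DMSO and the 4 times with WA-68 on the horizontal axis, 2 libraries per group as points and their mean as a line. HOXC12 reaches 572 and 646 CPM at 96 h over 337 and 408 in DMSO, and HOXD12 is at 1.87 and 2.25 CPM at 96 h under 5.05 and 5.32 in DMSO.

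At 96 h against DMSO, 9 HOX genes rose and 1 fell. HOXB3, HOXB4, HOXB5, HOXB6, HOXC4, HOXC6, HOXC12, HOXC13 and HOXD1 were higher and HOXD12 was lower (edgeR quasi-likelihood F test over all genes, Benjamini-Hochberg adjusted p under 0.05). Among all 16382 genes tested, 6.14% were called higher and 6.86% lower at this time. The median log2 fold change of the 26 tested HOX genes was 0.23, beside -0.008 over all genes. By cluster, 4 of 9 HOXB genes rose with a median of 0.29, 4 of 9 HOXC genes with a median of 0.35, and 1 of 8 HOXD genes rose while 1 fell, with a median of -0.49. By position, 2 of 4 anterior, 5 of 10 central and 2 of 12 posterior genes rose, and the 1 that fell was posterior. With library sizes left unscaled, 60.2% of the called genes of the whole table were higher at 96 h, against 47.3% as reported, and the HOX count was 11.

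HOXC12 had the largest count of any member, and its group mean was higher at each later time. Its level was 337 and 408 CPM in DMSO, 424 and 445 CPM at 12 h, 444 and 454.5 CPM at 24 h, 530.5 and 469 CPM at 48 h, and 572 and 646 CPM at 96 h. All 8 WA-68 libraries lay above both DMSO libraries. The log2 fold change was 0.71 ± 0.097 (SE) at 96 h with an adjusted p of 2.25e-05, a 1.64-fold rise to 609 ± 52.4 CPM at 96 h, against 372 ± 50.5 CPM in DMSO (SD, n = 2 each). At 48 h it was 0.43 ± 0.097 with an adjusted p of 0.00651 by edgeR, which became 0.0615 without DMSO replicate 1 (log2 fold change 0.29) and 0.118 without 48 h replicate 1. At 12 and 24 h HOXC12 was not called, with 0.22 and 0.27 and edgeR adjusted p of 0.25 and 0.128. Without DMSO replicate 2 these became 0.37 and 0.42 with adjusted p of 0.0462 and 0.0192. HOXC13, a regulator of hair and nail keratins next to it on the chromosome (chr12:53938765-53946544), was at 68.9 and 85.0 CPM at 96 h and 51.0 and 58.5 CPM in DMSO, with 55.0 to 74.0 CPM over the 6 libraries of 12 to 48 h. Its log2 fold change at 96 h was 0.49 ± 0.12 with an edgeR adjusted p of 0.00578, which rose to 0.0626 without DMSO replicate 1 and to 0.1 without 96 h replicate 2.

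HOXC11, HOXC10 and HOXC9, which lie between HOXC12 and HOXC8, were not called at 96 h. HOXC11 was at 67.8 and 78.7 CPM at 96 h and 57.1 and 65.7 CPM in DMSO, groups that do not overlap, with a log2 fold change of 0.25 and an edgeR adjusted p of 0.106. HOXC11 was called at 96 h with the GC offset (adjusted p 0.0253, and 0.0245 with the replicate block as well), with library size only (0.0492), without DMSO replicate 2 (0.0278) and without 96 h replicate 1 (0.042). HOXC10 was at 164 and 188 CPM at 96 h and 158 and 168 CPM in DMSO, and HOXC9 at 83.1 and 83.6 CPM at 96 h and 82.0 and 90.1 CPM in DMSO. Both overlapped between the groups, and the log2 fold change was 0.11 ± 0.095 for HOXC10 and -0.04 ± 0.09 for HOXC9. Over the 6 libraries of 12 to 48 h HOXC10 ran from 156 to 192 CPM, HOXC9 from 79.7 to 87.5 CPM and HOXC11 from 59.9 to 69.0 CPM. The highest HOXC gene rose while the next 2 in level did not pass the test.

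Of the 4 central HOXC genes, HOXC4 and HOXC6 rose at 96 h, and HOXC5 and HOXC8 were not called. HOXC4 (chr12:54016931-54056030) was at 65.4 and 68.6 CPM in DMSO, 54.7 and 63.9 CPM at 12 h, 63.8 and 61.6 CPM at 24 h, 66.3 and 73.2 CPM at 48 h and 84.6 and 85.5 CPM at 96 h. HOXC6 (chr12:53990624-54030823) was at 78.7 and 87.1 CPM in DMSO, 70.8 and 84.0 CPM at 12 h, 89.4 and 88.5 CPM at 24 h, 93.5 and 101.5 CPM at 48 h and 102 and 111 CPM at 96 h. In both genes the 96 h libraries lay above all others, and the lowest value was at 12 h. The log2 fold changes at 96 h were 0.35 ± 0.095 for HOXC4 and 0.36 ± 0.099 for HOXC6, with edgeR adjusted p of 0.0164 and 0.0151. With only the libraries compared the adjusted p were 0.0867 and 0.0674, and neither gene was called. Both calls were lost without DMSO replicate 1 (0.0739 and 0.103) and without 96 h replicate 2 (0.0607 and 0.105). HOXC5, at 13.2 and 18.1 CPM at 96 h and 10.49 and 11.9 CPM in DMSO, had 0.47 with an adjusted p of 0.0832. HOXC8 was at 80.2 and 94.9 CPM at 96 h and 71.3 and 81.2 CPM in DMSO, which overlap, with 0.20 and an adjusted p of 0.233. From 12 to 48 h HOXC5 ran from 9.62 to 15.6 CPM and HOXC8 from 63.4 to 91.2 CPM.

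In HOXB the 4 genes from HOXB3 to HOXB6 rose at 96 h. HOXB4, known for promoting the self-renewal of blood stem cells (chr17:48575513-48580111, minus strand), was at 27.5 and 29.2 CPM in DMSO, 32.1 and 33.1 CPM at 12 h, 34.2 and 33.8 CPM at 24 h, 39.3 and 36.1 CPM at 48 h and 44.5 and 51.5 CPM at 96 h. Each WA-68 library was above both DMSO libraries. The log2 fold change was 0.76 ± 0.11 at 96 h with an edgeR adjusted p of 4.45e-05, a 1.69-fold rise to 48.0 ± 4.97 CPM at 96 h, against 28.4 ± 1.19 CPM in DMSO (SD, n = 2 each). At 48 h it was 0.42 ± 0.11 with an adjusted p of 0.0201, and this call was lost without DMSO replicate 1 (0.0754) or either 48 h replicate (0.181 and 0.0635). HOXB5 (chr17:48591257-48593961), whose mouse counterpart marks long-term blood stem cells, was at 39.3 and 42.0 CPM in DMSO, 44.5 and 45.3 CPM at 12 h, 48.2 and 46.3 CPM at 24 h, 46.0 and 50.2 CPM at 48 h and 55.0 and 61.7 CPM at 96 h. It too lay above DMSO in every WA-68 library, and the 96 h log2 fold change was 0.52 ± 0.10 with an edgeR adjusted p of 0.00104.

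HOXB6 and HOXB3, whose annotated exons overlap, had their highest libraries at 96 h. HOXB6 (chr17:48595751-48604992) was at 98.8 and 102 CPM at 96 h and 73.8 and 79.4 CPM in DMSO, and between 73.0 and 89.7 CPM in the 6 libraries of 12 to 48 h. Its log2 fold change at 96 h was 0.39 ± 0.091 with an edgeR adjusted p of 0.0046. HOXB3, a hindbrain patterning gene (chr17:48548870-48604912), was at 248 and 246 CPM at 96 h and 183 and 204 CPM in DMSO, and between 177 and 220 CPM from 12 to 48 h. The difference was 0.36 ± 0.09 on the log2 scale with an edgeR adjusted p of 0.0091. This call was lost with only the libraries compared (adjusted p 0.0659). It was also lost without DMSO replicate 1, where the log2 fold change was 0.28. HOXB2, a further hindbrain gene at the anterior end, was at 24.5 and 23.0 CPM at 96 h and 18.6 and 20.7 CPM in DMSO, groups apart from each other but not called (0.29, adjusted p 0.142), with 19.7 to 23.3 CPM from 12 to 48 h.

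In HOXB neither the central genes HOXB7 and HOXB8 nor the posterior genes HOXB9 and HOXB13 were called at 96 h. HOXB7 was at 9.46 and 10.8 CPM at 96 h and 8.39 and 9.81 CPM in DMSO, HOXB8 at 23.3 and 19.2 CPM at 96 h and 22.8 and 23.8 CPM in DMSO, and HOXB9 at 34.1 and 35.2 CPM at 96 h and 32.9 and 34.6 CPM in DMSO. HOXB13 was at 14.8 and 18.5 CPM at 96 h and 14.9 and 16.7 CPM in DMSO. All 4 overlapped between the groups, with log2 fold changes of 0.16, -0.11, 0.04 and 0.07 in that order. From 12 to 48 h HOXB7 ran from 7.93 to 11.6 CPM, HOXB8 from 18.8 to 22.9 CPM, HOXB9 from 26.3 to 34.8 CPM and HOXB13 from 15.5 to 20.3 CPM. HOXB9 was lower at 12 h in both libraries than in both DMSO libraries, with a log2 fold change of -0.33 ± 0.12 that did not pass (edgeR adjusted p 0.166).

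HOXD genes were low and split. HOXD12, a posterior gene of limb and trunk (chr2:176099730-176101193), held 65 and 45 counts in DMSO, 25 and 33 counts at 12 h, 16 and 16 counts at 24 h, 26 and 11 counts at 48 h and 20 and 16 counts at 96 h. Its level was 5.05 and 5.32 CPM in DMSO, 2.80 and 3.79 CPM at 12 h, 2.01 and 1.57 CPM at 24 h, 3.004 and 1.36 CPM at 48 h and 1.87 and 2.25 CPM at 96 h. Both DMSO libraries lay above all 8 WA-68 libraries. The log2 fold change was -0.65 at 12 h, not called with an adjusted p of 0.254, then -1.54 ± 0.32 at 24 h, -1.22 ± 0.31 at 48 h and -1.34 ± 0.31 at 96 h, with edgeR adjusted p of 0.00661, 0.0132 and 0.00462. Each of these calls ended without 1 library, namely 24 h replicate 2 (0.166), 48 h replicate 2 (0.263, log2 fold change -0.77) and 96 h replicate 1 (0.0627). DESeq2 gave 0.0663 at 48 h.

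HOXD1, at the anterior end of the cluster (chr2:176188579-176190907), was at 1.24 and 1.54 CPM in DMSO, 1.01 and 1.49 CPM at 12 h, 1.51 and 1.96 CPM at 24 h, 1.96 and 2.22 CPM at 48 h and 2.44 and 3.51 CPM at 96 h. Its rise at 96 h was 1.08 ± 0.36 on the log2 scale with an edgeR adjusted p of 0.0467, and the call was kept in 1 of the 10 fits that left out a library each, with adjusted p up to 0.26. The remaining HOXD genes were not called in any comparison. HOXD11 was at 0.936 and 1.40 CPM at 96 h and 1.94 and 2.25 CPM in DMSO (log2 fold change -0.87, adjusted p 0.177), and HOXD13 at 1.78 and 3.23 CPM at 96 h and 3.11 and 3.90 CPM in DMSO (-0.53, adjusted p 0.351). HOXD3 was at 2.53 and 3.09 CPM at 96 h and 2.88 and 4.37 CPM in DMSO, HOXD9 at 1.22 and 1.12 CPM at 96 h and 2.02 and 1.06 CPM in DMSO, HOXD10 at 3.37 and 2.11 CPM at 96 h and 2.10 and 2.60 CPM in DMSO, and HOXD8 at 0.656 and 0.281 CPM at 96 h and 0.855 and 0.709 CPM in DMSO. HOXD11 and HOXD8 were lower in both 96 h libraries, and the others overlapped. How many of all genes were separated in this way was not counted. HOXD8 held 7 and 2 counts at 96 h and 11 and 6 counts in DMSO, with an edgeR adjusted p of 0.527. From 12 to 48 h the 6 genes spanned 0.345 CPM, the lowest HOXD8 library, to 4.02 CPM, the highest HOXD3 library. These 6 genes had 69 to 290 counts each over all libraries.

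Counts of the members too low to test were summed over the 8 WA-68 libraries and the 2 DMSO libraries, which hold 69938976 and 22030961 counts. HOXA10 had 30 counts with WA-68 and 16 in DMSO, HOXA13 13 with WA-68 and 4 in DMSO, HOXA9 7 with WA-68 and 3 in DMSO, HOXD4 54 with WA-68 and 18 in DMSO and HOXB1 5 with WA-68 and 0 in DMSO. HOXA11, a gene of forearm and uterus development, had 5 counts with WA-68 and 12 in DMSO, fewer over the 8 libraries than over the 2, and was singled out after its counts were seen. HOXA5 had 0 counts with WA-68 and 1 in DMSO, and HOXA2, HOXA3 and HOXA6 had 2 to 5 with WA-68 and 0 in DMSO. The sums themselves were not tested. With no filter on low counts, edgeR called HOXA11 lower over the mean of the 4 times (adjusted p 0.0202), but at none of the 4 times alone, and its fitted fold change depends on the prior count and is not given.

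**Figure D3:**
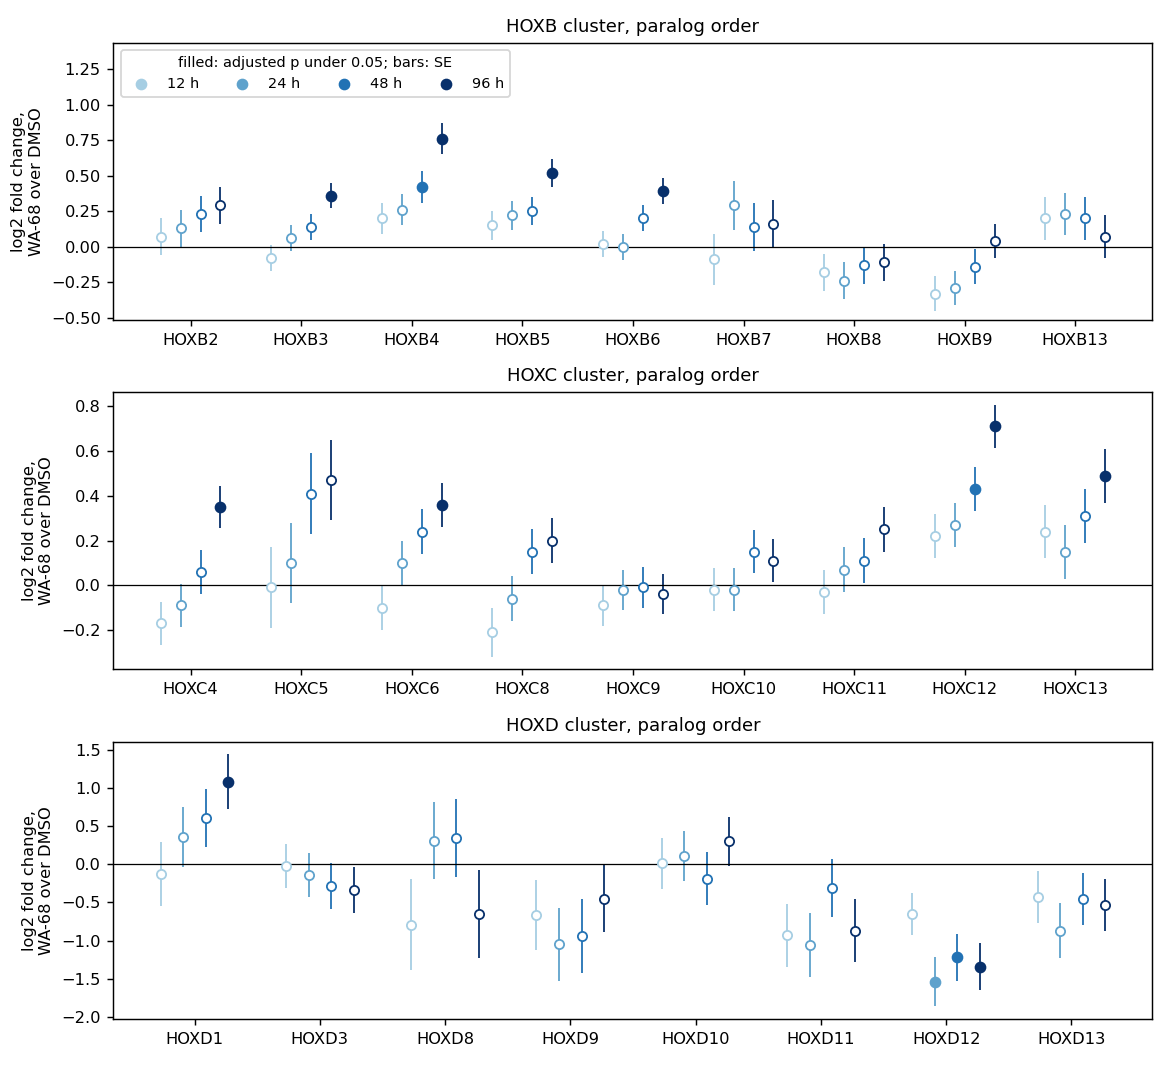
Log2 fold change against DMSO of the 26 tested HOX genes at 12, 24, 48 and 96 h (light to dark), in paralog order for HOXB, HOXC and HOXD, with bars of 1 SE and filled points where the adjusted p is under 0.05. Filled points at 96 h are HOXB3 to HOXB6, HOXC4, HOXC6, HOXC12, HOXC13, HOXD1 and, below the line, HOXD12 at -1.34.

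Earlier times held few calls. At 12 h 4 of 26 HOX genes (HOXC12, HOXB9, HOXD11 and HOXD12) had an unadjusted edgeR p under 0.05. The share of all genes under that cutoff was not counted. After adjustment 0 of 26 were called, beside 1.23% of all genes called higher and 1.92% lower, and 0 by DESeq2 or limma-voom. The count was 1 without DMSO replicate 2. At 24 h HOXD12 was lower and no gene was higher, beside 1.34% of all genes called higher and 2.25% lower, and 0 were called without 24 h replicate 2 and 2 without DMSO replicate 2. At 48 h HOXC12 and HOXB4 were higher and HOXD12 lower, beside 4.01% and 5.38% of all genes. The 48 h count was 1 without DMSO replicate 1 and without either 48 h replicate. The medians over the 26 genes were -0.09, 0.06 and 0.15 at 12, 24 and 48 h on the log2 scale, with medians over all genes between -0.007 and -0.001. All 4 times share the same 2 DMSO libraries. Of the called genes of the whole table, 62.4%, 59.5% and 60.3% were higher at 12, 24 and 48 h with library sizes left unscaled, against 39%, 37.4% and 42.7% as reported.

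Averaged over the 4 times with equal weight, 4 HOX genes were higher and 1 lower than in DMSO. All genes together were called higher in 4.90% and lower in 7.22%. HOXC12 and HOXB4 each had a log2 fold change of 0.41 (SE 0.079 and 0.09) with edgeR adjusted p of 0.00106 and 0.00331, and HOXD12 had -1.19 ± 0.22 with an adjusted p of 0.000853. These 3 kept the call in every alternative fit that tested them, 22 for HOXC12 and HOXB4 and 21 for HOXD12. HOXB5 at 0.28 ± 0.082 (adjusted p 0.0244) and HOXC13 at 0.30 ± 0.094 (0.0393) did not, and reached 0.169 and 0.321 without DMSO replicate 1, where the count of called genes was 3. HOXC13 libraries overlapped between WA-68 and DMSO.

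Between 96 h and 12 h, which both had WA-68 and do not involve DMSO, 8 HOX genes were higher at 96 h and 0 lower. Over all genes 2.39% were higher and 1.74% lower. HOXB4 differed by 0.55 ± 0.11, HOXC4 by 0.52 ± 0.097, HOXC12 by 0.49 ± 0.097, HOXC6 by 0.46 ± 0.10, HOXB3 by 0.44 ± 0.091, HOXC8 by 0.40 ± 0.11, and HOXB5 and HOXB6 by 0.37 each (SE 0.10 and 0.092) on the log2 scale. In each of the 8 both 96 h libraries lay above both 12 h libraries, the same libraries by which they were called. Genes that were not called, such as HOXB2, HOXB7, HOXC9 and HOXC13, were separated in this way too. The share of all genes so separated was not counted. HOXC8 had 80.2 and 94.9 CPM at 96 h and 63.4 and 68.4 CPM at 12 h. The median of the 26 was 0.27, beside -0.01 over all genes, and 6 of the 8 were central genes. Without 12 h replicate 1 the 8 calls were lost, although their differences remained between 0.35 and 0.53. Some of the calls were also lost without 96 h replicate 2 and without 12 h replicate 2. Each of these fits leaves 1 library in a group, and calls over all genes fell in them too. With all libraries kept, HOXB5 was not called by DESeq2 (adjusted p 0.0658) or by edgeR with library size only (0.0535).

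**Figure D4:**
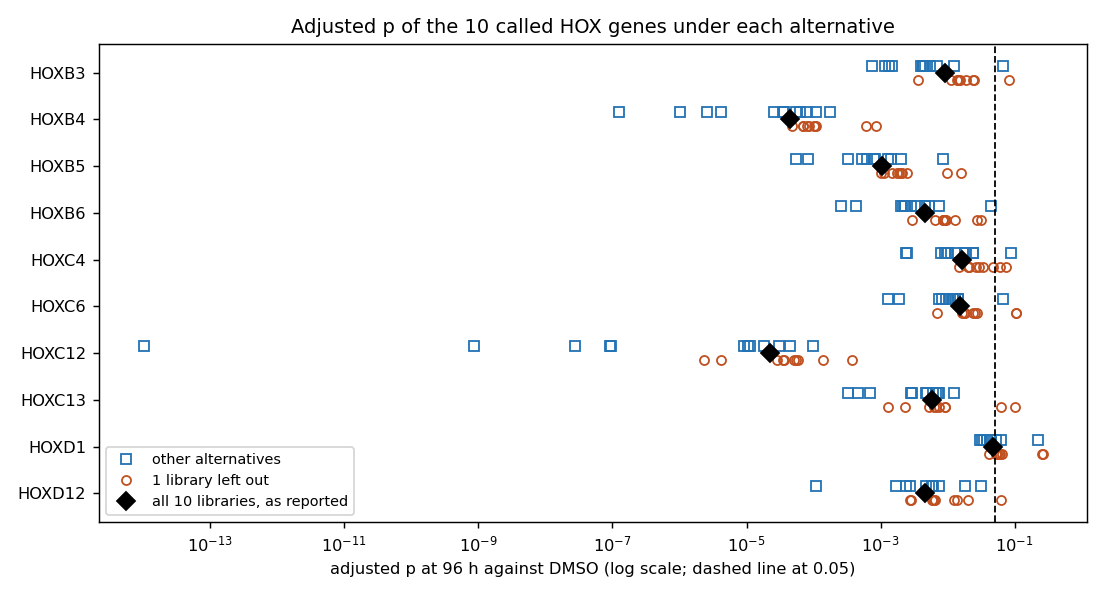
Adjusted p at 96 h against DMSO, on a log axis, for the 10 called HOX genes with all libraries (diamonds), with 1 library left out (circles) and under the other alternatives (squares), and a dashed line at 0.05. HOXB4, HOXB5, HOXB6 and HOXC12 stay left of the line throughout, and HOXD1 runs from 0.0306 to 0.26, with most of its points beyond the line.

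Of the 10 calls at 96 h, those of HOXC12, HOXB4, HOXB5 and HOXB6 held in all 23 alternative fits. Their adjusted p reached at most 0.00037, 0.000858, 0.0157 and 0.0436. The number of HOX genes called was 5 without DMSO replicate 1 and 6 without 96 h replicate 2. DMSO replicate 2 and 96 h replicate 2 stood apart from the other libraries on the second principal component, at -24.2 and -26.0 where the others ran from -0.71 to 14.4. In DMSO the difference of replicate 2 from replicate 1 followed GC content across genes (Spearman 0.571, genes not being independent). The same correlation was 0.289 at 96 h, -0.059 at 12 h, -0.167 at 24 h and -0.292 at 48 h. The tested HOX genes had a median GC content of 55.7% beside 48.4% over all genes. Leaving out DMSO replicate 2 and 96 h replicate 2 together leaves 1 library in each group, so that fit cannot show what they add. With a GC correction 11 HOX genes were called at 96 h. Calls over all genes rose too, to 1522 higher and 1797 lower from 1006 higher and 1123 lower.

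Non-coding genes within the clusters were too low in most cases, with 7 of 18 tested. None was called against DMSO at 12, 24, 48 or 96 h by edgeR, DESeq2 or limma-voom. At these times 2, 1, 1 and 3 had an unadjusted edgeR p under 0.05, and the share of all genes there was not counted. HOTAIR, a long non-coding RNA transcribed antisense between HOXC11 and HOXC12, was the most abundant, with 95.2 ± 14.03 CPM at 96 h, 63.5 ± 6.27 CPM at 12 h and 79.8 ± 3.34 CPM in DMSO (SD, n = 2 each). It was higher at 96 h than at 12 h by 0.59 ± 0.11 on the log2 scale with an edgeR adjusted p of 0.00139. The strand setting of the counting is not given in the sources used here, so reads of HOTAIR and of HOXC11 exons opposite it may not be separated. HAGLR, on the opposite strand of HOXD, was next at 16.2 ± 1.93 CPM at 96 h and 14.2 ± 0.167 CPM in DMSO and was not called.

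All 9 TALE cofactors were expressed above the filter. PBX3, a DNA-binding partner of HOX proteins, rose at 24, 48 and 96 h by 0.40, 0.31 and 0.37 on the log2 scale (edgeR adjusted p 0.0102, 0.0312 and 0.0069), to 86.6 ± 2.69 CPM at 96 h, against 67.2 ± 1.99 CPM in DMSO. PKNOX2 fell at 12, 24 and 48 h, with log2 fold changes of -0.46, -0.45 and -0.38 and adjusted p of 0.0268, 0.0293 and 0.0389. MEIS3 was higher at 96 h, by 0.29 with an adjusted p of 0.0421. At 96 h 2 of the 9 were higher and 0 lower, beside 6.14% of all genes called higher and 6.86% lower. The list median was 0.01. DESeq2 called 1 of the 9 at 48 h and 1 at 96 h, where edgeR called 2 each. PBX2, among the most abundant of the list, was not called, at 135.5 ± 5.37 CPM at 96 h and 134.5 ± 12.96 CPM in DMSO (SD, n = 2 each).

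Genes that flank the clusters showed 1 call at 96 h among 10 tested of 13, close to the 6.14% higher and 6.86% lower over all genes. CALCOCO1, beyond the HOXC13 end of HOXC and coding for an autophagy receptor, rose by 0.56 ± 0.11 with an edgeR adjusted p of 0.000934, to 66.4 ± 0.640 CPM at 96 h, against 45.2 ± 1.60 CPM in DMSO (SD, n = 2 each). CBX5, the HP1-alpha gene and the most abundant neighbour, was at 839 ± 19.0 CPM at 96 h and 886 ± 34.1 CPM in DMSO, not called, and CALCOCO2 beside HOXB was at 82.3 ± 1.02 CPM at 96 h and 74.2 ± 2.97 CPM in DMSO, not called. At 12, 24 and 48 h 0 neighbours were called by edgeR, DESeq2 or limma-voom. An unadjusted edgeR p under 0.05 was held by 2, 4 and 1, and the share of all genes there was not counted. EVX2, which lies beside HOXD13, was too low to test, with 19 counts over the 8 WA-68 libraries and 19 over the 2 DMSO libraries, or 0.272 and 0.862 unscaled CPM.

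Among 18 genes known to act on HOX expression, 15 were tested. RARB, a retinoic acid receptor through which retinoids act on HOX genes, rose at all 4 times, by 0.96, 0.93, 1.25 and 1.41 on the log2 scale (edgeR adjusted p 0.0235, 0.0271, 0.00111 and 0.000119). It reached 8.63 ± 0.502 CPM at 96 h, against 3.33 ± 0.641 CPM in DMSO (SD, n = 2 each). DESeq2 called none of the 15 at 12 and 24 h. DOT1L, the histone H3 lysine methyltransferase of the elongation-linked mark, fell at 48 h by 0.42 with an edgeR adjusted p of 0.0138. WDR5, a core subunit of MLL complexes, fell at 48 and 96 h by 0.29 each (0.0454 and 0.0324). Of the list, edgeR called 3 at 48 h and 2 at 96 h, DESeq2 2 and 1, and limma-voom 2 and 2. Over all genes edgeR called 4.01% higher and 5.38% lower at 48 h, and 6.14% higher and 6.86% lower at 96 h. The median log2 fold change of the list was -0.06 at 96 h, and CDX1 and CDX4 had no counts. KMT2D and KMT2A, histone methyltransferase genes and the most abundant of the list, were not called at any time. KMT2D was at 666 ± 83.5 CPM at 96 h and 652 ± 122.5 CPM in DMSO, and KMT2A at 365.5 ± 31.5 CPM at 96 h and 380 ± 13.9 CPM in DMSO.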

How the data were processed

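The deposited table holds whole-number read counts per gene for 10 libraries, which the authors made with STAR on GRCh38 and featureCounts after Trim Galore and cutadapt, per the submitters' processing notes. Neither versions nor the strand setting, gene annotation or rule for reads with several alignments are given there. All per-sample columns were used. Library totals ran from 7349744 to 13200051 counts, and intervals and floors cover counting error only.

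Of 63140 identifiers, 62541 matched a symbol. edgeR 4.0.16 (R 4.3.3) tested the 16382 genes kept by filterByExpr, with TMM scaling, 1 mean per group over all 10 libraries and a quasi-likelihood F test (5 residual and 18.5 prior degrees of freedom). The standard error is the log2 fold change over the square root of F, and p-values were Benjamini-Hochberg adjusted over all genes tested within a comparison. The fit was tested on simulated data. Lengths and positions come from GENCODE 29, not from the release used for counting. Levels per length divide TMM-scaled CPM by the union of a gene's exons. Promoter windows came from RefSeq, where 20 members had an entry, 19 of them with a full window.

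Every HOX member entered the counts. Of the further lists the called members and the most abundant are named. Some genes are not reported here by name. Members and lists were chosen with earlier results of these data known. Alternatives were RLE, upper-quartile or no scaling factors, no filter, a filter of 5 CPM in 2 libraries, DESeq2 1.42.0, limma-voom (limma 3.58.1), a replicate block, a GC offset (GC content known for 95.8% of genes tested), only the libraries compared, each library left out, 2 left out together, an adjusted p under 0.01, and lengths from the longest transcript or, added after seeing the data, from unshared exons. There were 2 libraries per group, so in the main fit p-values rest on the spread between replicate libraries pooled over all groups. That spread is also drawn toward a trend over all genes. The p-values therefore do not measure the spread within the compared groups alone.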

Additional observations from a re-analysis of the deposited data

Results flagged for a closer look

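For 8 HOX genes the effect at 96 h differed from that at 12 h by a test of the difference itself, which is the contrast of the 96 h and 12 h libraries in edgeR. Both effects use the same DMSO libraries, so they are given side by side. HOXC12 had a log2 fold change against DMSO of 0.71 at 96 h and 0.22 at 12 h, and the 96 h libraries exceeded the 12 h libraries by 0.49. For HOXB4 the effects were 0.76 at 96 h and 0.20 at 12 h, with a difference of 0.55, and for HOXB5 they were 0.52 at 96 h and 0.15 at 12 h, with a difference of 0.37. In these 3 genes both effects were above 0. HOXC4 had 0.35 at 96 h and -0.17 at 12 h, with a difference of 0.52, and HOXC6 had 0.36 at 96 h and -0.10 at 12 h, with a difference of 0.46. HOXC8 had 0.20 at 96 h and -0.21 at 12 h, with a difference of 0.40, and HOXB3 had 0.36 at 96 h and -0.08 at 12 h, with a difference of 0.44. In these 4 the effect was below 0 at 12 h, where no HOX gene was called. HOXB6 had 0.39 at 96 h and 0.02 at 12 h, with a difference of 0.37. None of the 8 differences passed without 12 h replicate 1. That fit leaves 1 library at 12 h, and calls over all genes fell in it too.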

How the results depend on the processing

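No called HOX gene changed direction under any alternative. At 12 h the count of called HOX genes was 0 as reported, 1 with the GC offset, 1 with that offset and the replicate block, and 2 without DMSO replicate 2 and 96 h replicate 2 together. At 24 h it was 1, against 2 with library size only, 0 with the filter of 5 CPM (which drops HOXD12) and 2 with the GC offset with or without the block. With DESeq2 it was 0 at 24 h, where HOXD12 received no adjusted p and so was not assessed. At 48 h it was 3, against 7 with the GC offset with or without the block, 6 without those 2 libraries and 1 at an adjusted p under 0.01. Calls over all genes at 48 h also grew, to 1049 higher and 1509 lower with the GC offset and 901 higher and 1163 lower without the 2 libraries, against 657 higher and 882 lower as reported. At 96 h it was 10, against 6 with only the libraries compared. Over the mean of 4 times it was 5, against 3 at an adjusted p under 0.01, and for 96 h against 12 h it was 8, against 5. Leaving out 1 library each gave 0 to 1 at 12 h, 0 to 2 at 24 h, 1 to 4 at 48 h, 5 to 11 at 96 h, 3 to 5 over the mean and 0 to 9 for 96 h against 12 h. With no filter the mean of 4 times kept 5 calls, 4 of them shared, with HOXA11 gained and HOXB5 lost. The HOXC share of the per-length HOX level was 71.0% with the longest transcript and 73.9% as reported. Apart from the filter of 5 CPM, the DESeq2 count at 24 h and the fits that leave out libraries, the cause of these shifts was not tested. The fit with only the libraries compared was not run for the mean of 4 times, which uses all of them.

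Deviations of same-numbered libraries correlated at -0.12 to 0.19 over 10 pairs of groups. The 1 pair over 0.1 was DMSO with 96 h, at 0.19. Whether same-numbered libraries were prepared together cannot be told from these correlations. The replicate block left the counts at 0, 1, 3, 10, 5 and 8 in the 6 comparisons in the order above.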
